A study of Homo sapiens with 9 samples.

Results

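In PC9 cells, a human lung adenocarcinoma line, 4334 of the 50802 array probes whose names start with ASHG19AP1 gave signal in the RNA left unbound by an anti-m6A antibody on every array and no detectable signal in the RNA that the antibody pulled down on any array. The array holds 60541 RNA probes in all. Total RNA was taken 96 h after transfection with 15 nM of siALKBH5#1, siALKBH5#3 or siControl, with 3 biological replicates and 3 arrays in each group, and by the labels both knockdown groups differ from siControl only in the siRNA. PC9 is a single established line, and the siRNA effects on ALKBH5 itself were not analysed here because the files do not pair the probes with gene names. The RNA was not fragmented, and it was separated into an immunoprecipitated (IP) fraction labeled with Cy5 and a supernatant (Sup) fraction labeled with Cy3, each with the same amount of spike-in RNA added. Both fractions of a sample were hybridized together on 1 array, and no dyes were swapped.

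In N6-methyladenosine (m6A), an adenosine of the RNA carries an added methyl group. The mark is written by the METTL3-METTL14 methyltransferase complex, removed by the demethylases ALKBH5 and FTO, and bound by readers such as the YTH and IGF2BP proteins, which affect splicing, translation and decay of the transcript. In an antibody separation of whole transcripts, a transcript copy with at least one modified site can go to the IP fraction, and a copy without one stays in Sup. A transcript seen only in Sup can therefore be one with little m6A, or one so scarce that its IP share stays under what the scanner can tell from background. ALKBH5 removes m6A, so its knockdown was used to ask which transcripts carry more m6A and which change in abundance.

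Detection is the flag of the scanner software for a spot well above the local background. The 4334 probes were chosen by that flag, set in Sup on all 9 arrays and unset in IP on all 9 arrays, so that their Sup and IP levels are a description and were not tested. They are 8.53% of the ASHG19AP1 probes and 12.1% of the 35709 ASHG19AP1 probes detected in Sup on all 9 arrays. Of those 35709 probes, 18609 (52.1%) were detected in IP on all 9 arrays as well and serve as the comparison set. The remaining probes were detected in IP on 1 to 8 arrays. The label of the set as coding transcripts could not be checked, since no table of the files says which ASHG19AP1 probes are coding, and the study's methods give fewer coding transcripts than there are such probes. Markers of the cell type, pathway lists and the probes' sequences could not be used for the same reason.

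Across the series, between 67.3% and 86.6% of the spots for RNA lay well above background in Sup on an array, and between 37.9% and 57.2% in IP. siALKBH5#1 replicate 3 stood apart with the brightest spike-in signals, at 12.16 log2 units in Sup against 8.57 to 10.50 on the other arrays, and siALKBH5#1 replicate 1 was alone in its scan. No spot was saturated, and none of the 4334 probes had a spot marked as an outlier in either channel.

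The count of probes by the number of arrays with IP detection fell from 4334 at 0 arrays to 1226 at 5 arrays and rose again to 18609 at 9 arrays. The Sup signal rose at every step. Its median, taken over probes as the geometric mean of 9 arrays, was 12.2 for the probes without IP detection, 15.7 with IP detection on 1 array, 29.9 on 5 arrays, 49.2 on 8 arrays and 266 on all 9 arrays. The probes without IP detection were thus the dimmest of all classes in Sup, and IP detection followed Sup brightness across the whole range.

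**Figure D1:**
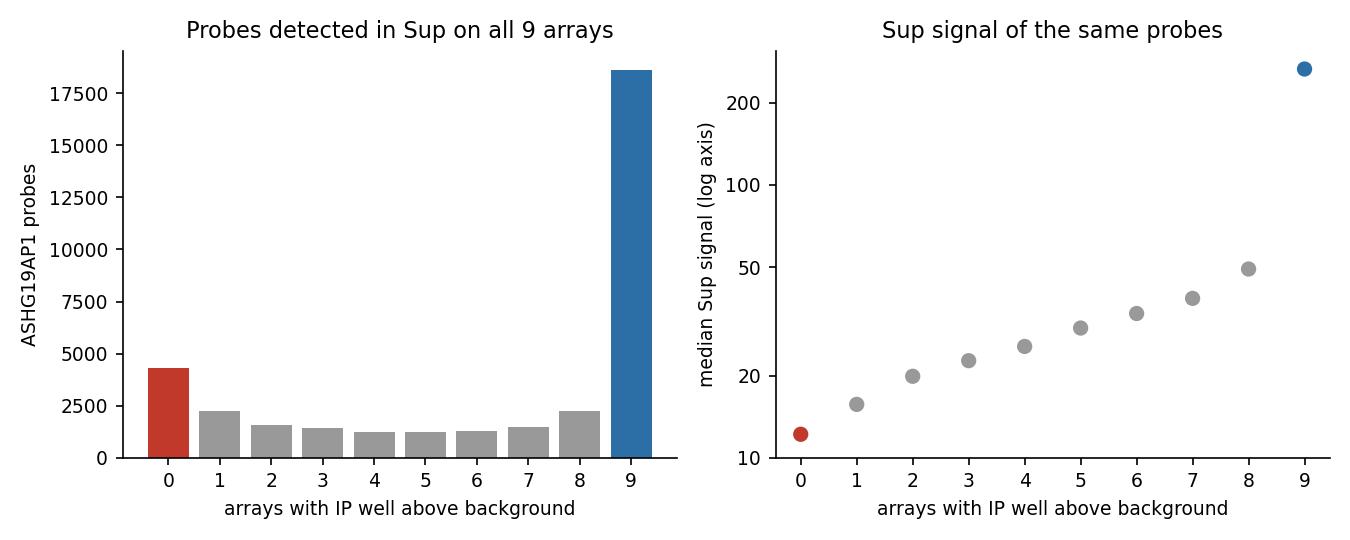
Left, the number of ASHG19AP1 probes detected in Sup on all 9 arrays (y axis) by the number of arrays with IP well above background (x axis). Right, the median Sup signal of the same probes on a log axis. The red bar and point are the 4334 probes without IP detection, whose median Sup signal is 12.2, and the blue ones the 18609 probes with IP detection on every array, with a median of 266.

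Among the probes without IP detection, the Sup signal ran from 6.17 to 69.4, with a 5th percentile of 8.04 and a 95th percentile of 25.3. The comparison set ran from 8.57 to 32600, with quartiles of 97.5 and 1300. No member of the first set reached the lower quartile of the comparison set, and 98.6% of them lay under its 5th percentile of 36.1. The overlap was one-sided, since 3076 (16.5%) of the probes detected in both channels had a Sup signal under the brightest probe without IP detection. After scaling each array to the spike-in RNA, the median Sup level was 4.45 log2 units lower without IP detection, a difference of -4.45 as the first set minus the comparison set.

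When the 35709 probes were split into deciles by scaled Sup level, the dimmest decile held 2288 probes without IP detection, which is 64.1% of that decile, and 21 probes detected in both channels. In the second decile 36.2% of the probes lacked IP detection, in the third 15.3%, in the fourth 4.28% and in the fifth 1.32%. The sixth decile held 7 probes without IP detection beside 2432 with IP detection on every array, and the 4 brightest deciles held none. The lowest 3 deciles together held 4127 (95.2%) of the probes without IP detection. Only 54 lay in the fifth and sixth deciles, where detection in both channels was common as well.

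**Figure D2:**
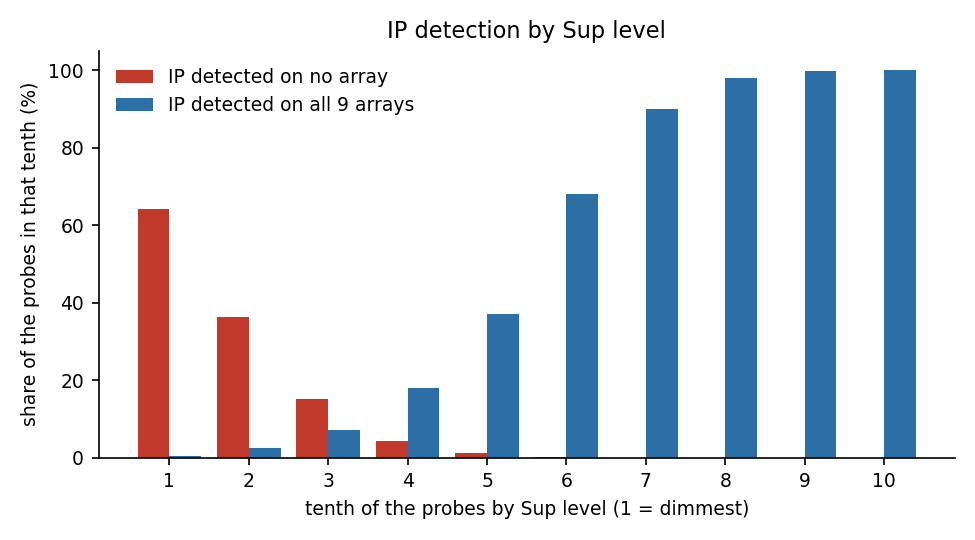
Share of probes (y axis, %) without IP detection on any array (red) and with IP detection on all 9 arrays (blue) in each decile of the 35709 ASHG19AP1 probes detected in Sup, ordered by Sup level from 1, the dimmest, to 10. The red share falls from 64.1% in the first decile to 0 from the seventh on.

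The Sup signal of the probes without IP detection was low on each array. Their median was 16.3, 11.6 and 12.5 in the siControl arrays, 10.7, 7.60 and 21.2 with siALKBH5#1, and 14.3, 11.4 and 10.7 with siALKBH5#3. siALKBH5#1 replicate 3 was the highest and siALKBH5#1 replicate 2 the lowest of the 9 arrays, so that the range of siALKBH5#1 covers both other groups. The lowest Sup signal that the scanner flagged as detected was 5.00 on every array, and the lowest member lay between 5.00 and 5.24, directly at this limit. The median of the comparison set was 13.9 to 37.5 times that of the probes without IP detection on the same array.

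The lowest IP signal flagged as detected among RNA probes lay between 8.47 and 22. It was therefore higher than the lowest detected Sup signal on each array, and on 3 arrays, siControl replicate 3 and siALKBH5#1 replicates 2 and 3, it was also higher than the median Sup signal of the probes without IP detection. On these arrays a typical probe of the set would have needed more IP signal, before scaling, than it had Sup signal to be flagged.

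**Figure D3:**
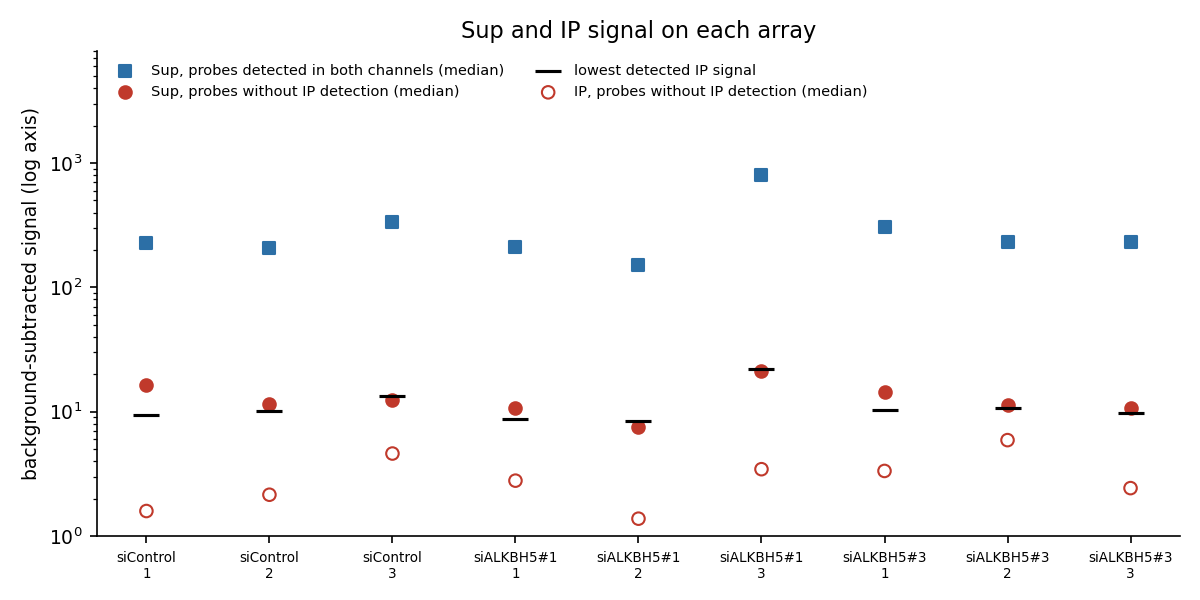
Background-subtracted signal on a log axis (y) for each of the 9 arrays (x, group and replicate number). Blue squares are the median Sup signal of the 18609 probes detected in both channels, filled red points that of the 4334 probes without IP detection, open red points the median IP signal of the latter, and black dashes the lowest IP signal flagged as detected. The filled red points sit close to the dashes, between 7.60 and 21.2, and the blue squares between 152 and 795.

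The IP signal of these probes was low, though at the median above that of the control spots. Its median was 1.59, 2.15 and 4.61 in the siControl arrays, 2.79, 1.38 and 3.45 with siALKBH5#1, and 3.34, 5.91 and 2.43 with siALKBH5#3. Between 2.93% and 24.1% of the values on an array were at or below 0. The array's 60 negative control probes, with 180 spots, had median IP signals between -1.31 and -0.36, and the 308 spots of the control probe 3xSLv1 had medians between -5.44 and -1.59. On every array the probes without IP detection thus had a higher median IP signal than both kinds of control. The local IP background around them had the same median as that around other ASHG19AP1 probes on each array.

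A less strict flag of the scanner software marks a signal as positive and significant against its local background. It was set in IP for 43.1% to 87.8% of these probes per array, against 15.6% to 30.0% of the negative control spots and 1.95% to 10.4% of the 3xSLv1 spots. It was set on 5 or more arrays for 2817 (65%) of the 4334 probes and on none for 41 (0.946%). By this flag, most probes of the set had some IP signal on most arrays. The control spots also had less Sup signal, with medians between 0.618 and 4.29 for the negative controls, and the part of carry-over between the dyes in the IP values was not tested.

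With IP as the higher of a probe's own signal and the lowest detected IP signal on its array, both scaled to spike-in RNA, IP/(IP + Sup) gives an upper limit of the m6A level, the share of a transcript in the IP fraction. The median limit over the 4334 probes, each the mean of 9 arrays, was 64.1%, with quartiles of 58.3% and 68.3% and a range from 24.9% to 77.7%. The level measured in the comparison set had a median of 52.1%, quartiles of 43.0% and 62.8% and a 5th percentile of 31.5%. For most probes without IP detection, the limit therefore lay above the typical measured level and did not set them apart from it. A limit under the median measured level was found for 445 (10.3%) of them, a limit under the lower quartile for 110 (2.54%), and a limit under the 5th percentile for 11 (0.254%).

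By group, the median limit was 61.1% in siControl, 69.6% with siALKBH5#1 and 61.2% with siALKBH5#3. The arrays of siControl gave 66.1%, 64.8% and 51.9%, those of siALKBH5#1 72.0%, 79.7% and 57.1%, and those of siALKBH5#3 60.9%, 48.9% and 73.0%. The groups overlapped, and the lowest detected IP signal differs between arrays, so that these limits are no measure of a change in m6A. With the probes' own positive IP signal in place of the lowest detected one, the median over the set was 32.6%, and without scaling to spike-in RNA the median limit was 47.4%.

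**Figure D4:**
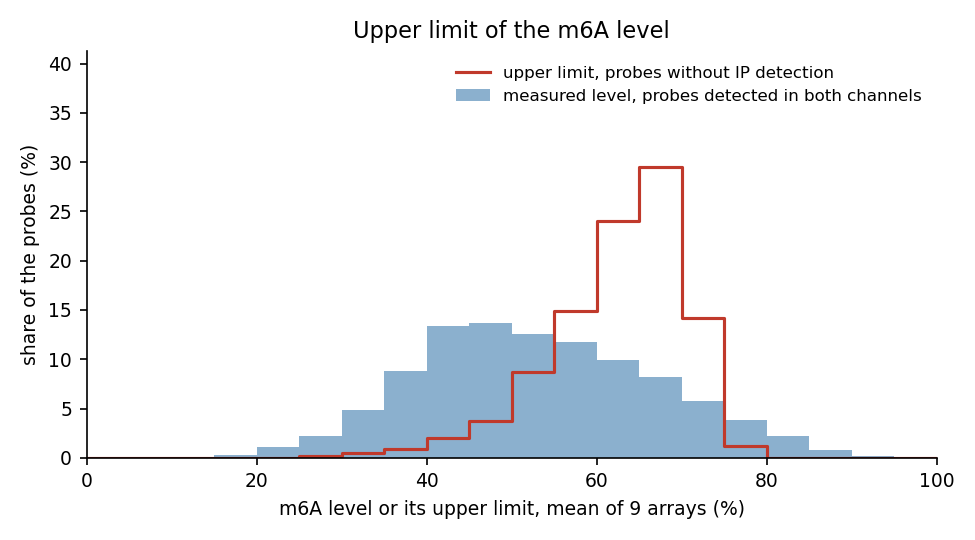
Distribution over probes, in steps of 5 percentage points (x axis, mean of 9 arrays), of the upper limit of the m6A level for the 4334 probes without IP detection (red line) and of the measured level for the 18609 probes detected in both channels (blue bars), each as a share of its set (y axis, %). The red line peaks at 65% to 70%, with 29.5% of the probes, to the right of the blue peak at 45% to 50%.

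The limit was tightest where Sup was brightest. In the dimmest decile by Sup level its median was 68.1%, in the third decile 52.6% and in the sixth decile 26.5%. The 54 probes of the fifth and sixth deciles had limits between 24.9% and 38.1%, with a median of 34.2%. Probes detected in both channels in the sixth decile had a median level of 52.5%, with a lowest of 28.6%. A probe with the same Sup signal and detected IP must lie at or above the limit, so that this gap is set by the rule. The 7 probes of that decile without IP detection had IP signals too low for the flag, at a Sup level at which 68.1% of the probes were detected in IP on all 9 arrays.

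The brightest probe of the set by mean scaled Sup level was ASHG19AP1B12907945411, for which the files give no gene. Its Sup signal was 130, 64.1 and 67.5 in siControl, 57.2, 46.8 and 99.1 with siALKBH5#1, and 71.5, 57.1 and 61.9 with siALKBH5#3. Its IP signal was 4.44, 6.85 and 7.55 in siControl, 0.86, -1.49 and 8.62 with siALKBH5#1, and 5.02, 7.80 and 3.92 with siALKBH5#3. Sup above IP on every array is set by the choice of the brightest probe with undetected IP, and these signals were not scaled. The groups overlapped in both fractions. The upper limit of its m6A level was 25.2% ± 7.79 (SD, n = 9), against a measured level under 25% for 285 (1.53%) of the probes detected in both channels. The 20 brightest probes had median Sup signals of 42.5 to 71.6, median IP signals of 2.05 to 7.28 and limits of 24.9% to 32.8%.

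Just outside the rule, 2265 probes were detected in Sup on all 9 arrays and in IP on exactly 1. That array was siALKBH5#3 replicate 2 for 1484 (65.5%) of them, and 1 of the other 8 arrays for 4 to 202. siALKBH5#3 replicate 2 also had the largest share of RNA spots detected in IP, 57.2%. A further 1511 probes missed the rule because Sup was undetected on 1 array only, which was siALKBH5#1 replicate 2, the array with the fewest RNA spots detected in Sup, for 1257 of them. The border of the set was thus largely drawn by 2 arrays, 1 in each fraction. Inside the border, a probe's highest IP signal was at the median 0.697 of the lowest detected IP signal on its array, and for 17% of the probes it was above 0.9 of it.

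When IP detection was asked for on the siControl arrays alone, 8029 probes detected in Sup on all 9 arrays had none. On the arrays that did not take part in this choice, 1000, 141 and 561 of them were detected in IP with siALKBH5#1 and 1007, 3050 and 581 with siALKBH5#3, so that single arrays added 1.76% to 38.0%. Among probes without IP detection on 2 of the siControl arrays, the one left out detected 1.55%, 2.93% and 28.4%. The 28.4% on siControl replicate 3 lies within the range of the knockdown arrays. It is a share of 11207 probes chosen on 2 arrays, and not of the 8029, so that the shares have unlike bases. A gain of IP detection with an siRNA could not be told from the differences in brightness between arrays. Some of the 35709 probes detected in Sup had IP detection on all 3 arrays of 1 group and none of the other 6 arrays. They were 0 probes in siControl, 2 with siALKBH5#1 and 119 with siALKBH5#3. Per array, IP was detected on 40.8% to 50.9% of RNA spots in siControl, 37.9% to 47.2% with siALKBH5#1 and 44.4% to 57.2% with siALKBH5#3. The part of these differences in the counts was not tested.

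The set was spread over the probe names. Of the probes detected in Sup on all 9 arrays, 13.6% of those starting ASHG19AP1A and 11.9% of those starting ASHG19AP1B met the rule, 580 and 3754 probes. Within the dimmest decile by Sup level these shares were 62.4% and 64.3%. Other names on the array gave larger shares by the same rule, 23.4% (571 of 2438) for ASHGV and 22.9% (405 of 1768) for ASHG38SM. Their Sup levels, on which such a share depends, were not compared. Of the 47 RNA probes with a RefSeq accession that were detected in Sup on all 9 arrays, 0 met it. These probes have several spots each, and every spot had to meet the rule, which is stricter than for ASHG19AP1 probes with a single spot. Of the 180 spots of the 60 negative control probes, 17 (9.44%) were detected in Sup on all 9 arrays, and 0 met the rule. Only those 17 could have met it, and IP was detected on 2.78% to 12.2% of the negative control spots per array.

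None of the 4334 probes has a methylation level in the values that the authors deposited. Of the ASHG19AP1 probes detected in Sup on all 9 arrays, levels were deposited for 0 of those with IP detection on 1 or 2 arrays and for 99.8% of those with IP detection on 3.

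Sup signal was then compared between groups. A Sup level is the amount of a transcript in the unbound fraction and not its total abundance, and fewer copies and a larger bound share cannot be told apart where IP is undetected. Membership needs Sup detection on all 9 arrays, so that a transcript which fell to background in 1 group cannot be among these probes. The limma fit covered 45830 RNA probes, the 4334 included, with levels scaled to spike-in RNA.

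With siALKBH5#1, the probes without IP detection had a median log2 change in Sup level of -0.33, with quartiles of -0.52 and -0.15, and 87.8% of them had a value below 0. The median was -0.04 in the comparison set and -0.19 over all probes tested. None passed an adjusted P of 0.05 in limma with Benjamini-Hochberg adjustment, where 0% of all probes did. At an unadjusted P under 0.05, 1 was higher (0.249% of all probes) and 0 were lower (0.356% of all probes). The arrays of the groups did not overlap for 0 probes that were higher, against 1.02% of all probes, and for 2 that were lower, against 0.644%. The median Sup level of the set was -5.30, -6.09 and -6.86 log2 units on the siControl arrays and -5.86, -5.64 and -7.76 with siALKBH5#1, so that the lower mean of siALKBH5#1 came with overlapping groups and rested on replicate 3. Without that array the median change was 0.34, and 3 of the probes passed as higher (0.0692%), against 0.218% of all probes. Without siControl replicate 1 the median change was 0.049, and it lay between -0.73 and -0.62 without siALKBH5#1 replicate 1, siALKBH5#1 replicate 2 or siControl replicate 3. On all 9 arrays it was -0.0017 after quantile normalization, -0.14 without scaling, -0.12 with the dye-normalized signal, -0.22 with normexp background correction and 0.30 with array weights.

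With siALKBH5#3, the median log2 change in Sup level was 0.039, with quartiles of -0.13 and 0.23. It was 0.18 in the comparison set and 0.13 over all probes tested. None of the probes passed the adjusted P in limma, as was the case for 0% of all probes. At an unadjusted P under 0.05, 1 was higher (0.995% of all probes) and 1 was lower (0.194% of all probes). The groups did not overlap for 87 that were higher (2.01%), against 9.86% of all probes, and for 11 that were lower (0.254%), against 1.82%. Both shares were under those over all probes. The median Sup level of the set on the siALKBH5#3 arrays was -6.14, -6.05 and -5.96 log2 units, close together and inside the range of siControl. Without siALKBH5#1 replicate 3, which shares the estimate of the spread, 1 of the probes passed as higher, against 0.397% of all probes. Without siControl replicate 3 the median change was -0.34, without siControl replicate 1 it was 0.43, and its sign also turned when arrays were scaled to their 75th percentile (-0.15), left unscaled (-0.15) or quantile normalized (-0.065).

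At the threshold of the study's methods, a fold change above 1.5 with an unadjusted P under 0.01, limma gave 1 probe higher and 0 lower with siALKBH5#1, against 0.0589% and 0.0611% of all probes, and 0 higher and 0 lower with siALKBH5#3, against 0.233% and 0.0502%. The methods' t-test at the same threshold gave 0 higher and 0 lower with siALKBH5#1, against 0.105% and 0.0393% of all probes, and 4 higher and 0 lower with siALKBH5#3, against 1.47% and 0.19%. None passed it after Benjamini-Hochberg adjustment.

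The precision behind these counts was low. The median standard error of a log2 change was 0.63 for the probes without IP detection, larger than the log2 value of 0.585 for the methods' 1.5-fold threshold. The spread between replicates, as the median residual SD, was 0.869 log2 units for them against 0.623 for the comparison set. These values are for the levels scaled to spike-in RNA. For ASHG19AP1B12907945411, the change was -0.55 (SE 0.68, limma adjusted P = 1) with siALKBH5#1 and -0.19 (SE 0.68, limma adjusted P = 1) with siALKBH5#3.

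The siRNAs were compared with each other in the same fit. The median log2 difference in Sup level, siALKBH5#3 minus siALKBH5#1, was 0.39 for the probes without IP detection and 0.34 over all probes. In limma, 0 of them passed an adjusted P of 0.05 as higher, where 0.00218% of all probes did, and 0 as lower, where 0% did. At an unadjusted P under 0.05, 13 were higher and 0 lower, against 2.14% and 0.415% of all probes. At the methods' threshold 1 was higher and 0 lower, against 0.508% and 0.111% of all probes.

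Quantile normalization gives each array the same distribution of Sup signals, so that it takes out differences in brightness between arrays and compares a probe with the other probes of its array. With it, 3 of the 4334 probes (0.0692%) passed an adjusted P of 0.05 as higher with siALKBH5#1, against 0.0633% of all probes, and 0 as lower, against 0.0305%. With siALKBH5#3, 3 passed as higher (0.0692%), against 0.855% of all probes, and 2 as lower (0.0461%), against 0.218%. For siALKBH5#1 the share was near that of all probes, and for siALKBH5#3 it was under it in both directions. Between the siRNAs, 8 were higher and 19 lower with siALKBH5#3, against 1.30% and 0.805% of all probes. The 4 probes described next were chosen after their values were seen, among the 8 calls against siControl: the one that rose most with each siRNA, and both that were lower with siALKBH5#3.

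The Sup signal of ASHG19AP1B10526330111 was 13.1, 10.7 and 11.1 in siControl, 64.1, 43.8 and 75.3 with siALKBH5#1, and 32.5, 17.2 and 20.7 with siALKBH5#3. Before scaling, every array of both siRNAs was above every siControl array, while with spike-in scaling the siALKBH5#1 and siControl arrays overlapped. On the quantile-normalized log2 scale the means were 3.45 ± 0.07 (SD, n = 3) in siControl and 5.91 ± 0.44 (SD, n = 3) with siALKBH5#1. For siALKBH5#3 arrays it was 4.51 ± 0.31 (SD, n = 3). The change with siALKBH5#1 was 2.46 (SE 0.247, limma adjusted P = 0.023) on that scale, and 2.17 with an adjusted P of 1 when scaled to spike-in RNA. Its IP signal stayed undetected, at 7.69, 3.26 and 13.6 on the siALKBH5#1 arrays.

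The Sup signal of ASHG19AP1A10004254111 was 7.95, 7.53 and 11.7 in siControl, 6.41, 5.64 and 8.34 with siALKBH5#1, and 41.7, 18.6 and 30.6 with siALKBH5#3. It was higher on the siALKBH5#3 arrays than on any other, while siALKBH5#1 and siControl overlapped. The change with siALKBH5#3 was 1.81 (SE 0.311, limma adjusted P = 0.0286) after quantile normalization, and 1.89 with an adjusted P of 1 when scaled to spike-in RNA. With spike-in scaling, this probe and ASHG19AP1B10526330111 passed when siALKBH5#1 replicate 3 was left out, at adjusted P values of 0.0143 and 0.0035 in limma. Neither passed when any other single array was left out. The change of ASHG19AP1A10004254111 stayed at 1.89 there, since the omitted array enters only the estimate of the spread.

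The Sup signals of the other pair were lower with siALKBH5#3 than in siControl, while siALKBH5#1 and siControl overlapped. With siALKBH5#1 the signals were 13.3, 7.97 and 19.3 for ASHG19AP1B10693760611 and 11.7, 7.45 and 25.8 for ASHG19AP1A10056938211. ASHG19AP1B10693760611 had signals of 23.2, 13 and 18 in siControl against 8.68, 8.69 and 6.12 with siALKBH5#3, a change of -1.12 (SE 0.206, limma adjusted P = 0.0354) after quantile normalization. ASHG19AP1A10056938211 had signals of 18.1, 12.2 and 14.3 in siControl against 10.5, 6.82 and 6.35 with siALKBH5#3, a change of -0.86 (SE 0.17, limma adjusted P = 0.0476). On these unscaled signals siALKBH5#3 and siControl did not overlap for either probe. With spike-in scaling these groups overlapped for ASHG19AP1A10056938211, while for ASHG19AP1B10693760611 they did not. The values with siALKBH5#3 lay near the lowest detected Sup signal of 5.00, and with spike-in scaling the changes were -0.995 and -0.742, with an adjusted P of 1 for both.

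**Figure D5:**
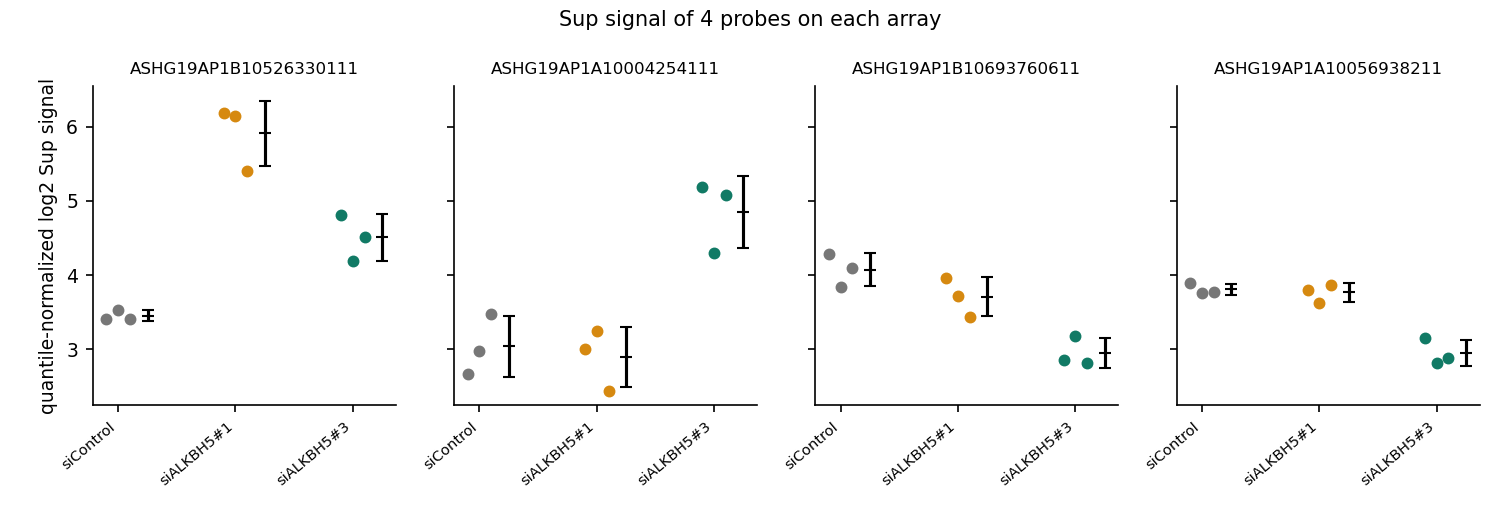
Quantile-normalized log2 Sup signal (y axis) of 4 probes without IP detection in siControl, siALKBH5#1 and siALKBH5#3 (x axis). Points are single arrays, and the black bars beside them the mean and SD of 3 arrays. ASHG19AP1B10526330111 is highest with siALKBH5#1, ASHG19AP1A10004254111 with siALKBH5#3, and the other 2 are lowest with siALKBH5#3.

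Whether probes passed depended on single arrays as well as on the scaling. When each array was left out in turn under quantile normalization, the count of probes higher with siALKBH5#1 was 0 in 7 of 9 fits, that of probes higher with siALKBH5#3 was 0 in 4 of 9 fits, and that of probes lower with siALKBH5#3 was 0 in 7 of 9 fits. Without siALKBH5#1 replicate 3 the counts rose instead, to 60 (1.38%), 46 (1.06%) and 24 (0.554%), against 2.09%, 2.92% and 1.25% of all probes. The log2 changes of the 4 probes kept their sign in all 9 fits. The probes were chosen by their changes on these same arrays, most of which each fit reuses. The kept sign and the ranges are therefore largely set by the choice and add no support. That of ASHG19AP1B10526330111 with siALKBH5#1 ran from 2.3 to 2.7. With siALKBH5#3, ASHG19AP1A10004254111 ran from 1.64 to 2.09, ASHG19AP1B10693760611 from -1.24 to -1.02 and ASHG19AP1A10056938211 from -0.963 to -0.796.

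The largest counts came with array weights, which limma estimated between 0.0302 for siALKBH5#1 replicate 3 and 19.5 for siControl replicate 2, so that single arrays carried the comparison. With these weights 1388 probes of the set were higher and 64 lower with siALKBH5#1, against 38.6% and 7.14% of all probes, which is 32% and 1.48% of the set. With siALKBH5#3, 590 (13.6%) were higher and 330 (7.61%) lower, against 24.8% and 6.96% of all probes. Between the siRNAs, 41 were higher and 733 lower with siALKBH5#3, against 8.21% and 16.4% of all probes.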

How the data were processed

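RNA of 9 PC9 samples was hybridized to Arraystar mRNA&lncRNA epitranscriptomic arrays, IP in Cy5 and Sup in Cy3. The authors deposited the Agilent Feature Extraction 11.0.1.1 output of each array, with intensity per spot, and a methylation level as a fraction for part of the probes, which served only to see which probes have one. Deposited background-subtracted intensities were put on the log2 scale and centred, per channel and array, on the mean over 13 of the 102 spike-in probes, those detected in both channels on all 9 arrays. Spots marked as outliers were left out of the fit. Groups were tested for Sup level with limma 3.58.1 in R 4.3.3, in a model of the 3 groups. The test covered RNA probes detected in Sup on all arrays of at least 1 group, with Benjamini-Hochberg adjustment. The step was tried on simulated data with independent noise per probe and array, which hold no differences in brightness between arrays. Other signals, scalings, filters, blocks, weights and the methods' t-test were run as alternatives. The number of arrays limits the precision. Alternatives planned on a spot's mean signal used its median. The brightest probe was named by rule, and no member met the rule for naming changed probes, an unadjusted P under 0.01 without overlap. The members and lists were chosen with earlier results of these data known.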

Additional observations from a re-analysis of the deposited data

How the results depend on the processing

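The number of probes without IP detection was 4334. It was 6599 when IP detection on 1 array was allowed, 1469 with the less strict flag in both channels, and 4350 to 5852 when the rule was applied without each array in turn. The median Sup difference from the comparison set, -4.45, was -3.63 without background correction and -4.52 to -4.34 without each array in turn. The median upper limit of 64.1% was 47.4% without scaling, 32.6% with the own positive IP signal, and 62.1% to 65.9% without each array in turn.

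No probe of the set passed an adjusted P of 0.05 in Sup with either siRNA in the fit as reported. With array weights, 1388 were higher and 64 lower with siALKBH5#1, 590 were higher and 330 lower with siALKBH5#3, and 774 (17.9%) differed between the siRNAs, where 24.6% of all probes did. Quantile normalization gave 3 and 0 with siALKBH5#1, 3 and 2 with siALKBH5#3, and 27 (0.623%) between the siRNAs, where 2.10% of all probes passed. Scaling to the 75th percentile gave 1 (0.0231%) between the siRNAs, against 0.572% of all probes. The methods' t-test gave 4 higher with siALKBH5#3 at its threshold and 0 after Benjamini-Hochberg adjustment, and limma at that threshold gave 1 higher with siALKBH5#1. Without each array in turn the counts were 0 to 3 higher and 0 lower with siALKBH5#1, 0 to 1 higher and 0 lower with siALKBH5#3, and 0 to 4 between the siRNAs, the calls all coming without siALKBH5#1 replicate 3, where the 4 are 0.0923% of the set against 0.723% of all probes. Quantile normalization without each array, chosen after seeing the data, gave 0 to 60 higher and 0 to 1 lower with siALKBH5#1, 0 to 46 higher and 0 to 24 lower with siALKBH5#3, and 2 to 113 between the siRNAs. The highest of each came without siALKBH5#1 replicate 3, where 2.09%, 1.55%, 2.92%, 1.25% and 7.49% of all probes passed, in the same order. In every other setting the count with each siRNA was 0. The median log2 change ranged from -0.729 to 0.342 with siALKBH5#1 and from -0.341 to 0.432 with siALKBH5#3 over all settings, and the cause of these shifts was not tested.

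With the replicate block, 0 probes of the set passed with either siRNA (21 and 42 of all probes) and 1 between the siRNAs (96 of all probes), and quantile normalization with the replicate block, also chosen after seeing the data, gave 0, 0 and 8 (0, 187 and 445 of all probes). Whether the numbers pair the samples could not be told from the arrays' deviations, which also hold differences in brightness between arrays. Deviations of arrays with the same number correlated at 0.619, -0.058 and 0.580 between siALKBH5#1 and siControl. Between siALKBH5#3 and siControl they correlated at -0.467, -0.123 and -0.268. Arrays with different numbers gave -0.61 to 0.462 for siALKBH5#1 with siControl and -0.0964 to 0.369 for siALKBH5#3 with siControl.

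The change of ASHG19AP1B12907945411 with siALKBH5#1 turned to 0.26 with array weights, 0.21 without siALKBH5#1 replicate 3 and 0.021 without siControl replicate 1, and with siALKBH5#3 to 0.38 without siControl replicate 1. Without each array in turn these changes ran from -1.04 to 0.21 and from -0.679 to 0.38. That of ASHG19AP1A10056938211 with siALKBH5#3 turned to 0.042 with normexp background correction. None of these passed the test.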
